A study of Mus musculus with 6 samples.

Results

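The nuclear genes for the subunits of the mitochondrial respiratory chain were compared between mouse cells with and without knockdown of CTCF, a DNA-binding protein that takes part in folding chromatin into loops. The members were the protein-coding symbols of complex I (Nduf, without the Ndufaf assembly factors), complex II (Sdha to Sdhd), complex III (Uqcr and Cyc1), complex IV (Cox4 to Cox8) and complex V, the ATP synthase (Atp5). The rule found 86 of the 24732 symbols in the table of FPKM, a level scaled by transcript length and sequencing depth: 38 of complex I, 4 of complex II, 9 of complex III, 18 of complex IV and 17 of complex V. Complexes were assigned by symbol, so Ndufa4, whose protein is also found with complex IV, stayed with complex I. The 6 samples were cultures labelled as female germline stem cells (FGSCs) of strain C57BL/6 at more than 20 passages, kept over inactivated STO fibroblasts. The 3 shCTCF samples, unlike the 3 control samples, received a lentiviral short hairpin RNA of 1 design against Ctcf, with puromycin used to select infected cells. The study's methods do not say whether control samples received a virus or puromycin. Effects of infection and selection can therefore not be told apart from the knockdown. Nothing in the labels says that replicates came from separate cultures, so p-values measure the spread between these samples, which may be technical.

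Ctcf itself was at 58.2, 56.0 and 53.5 FPKM in the control samples and at 0.740, 0.550 and 0.629 FPKM in the shCTCF samples, a mean 98.9% lower (-5.12 ± 0.09 on the log2(FPKM + 1) scale, limma, adjusted p = 1.1e-08). Per sample 1686052 to 7044272 fragments were counted, with the lowest total in control replicate 2 and 5322636 or more in the other 5 samples. The defining germ cell genes went against the label: Ddx4 and Dazl were listed at 0 FPKM in all control samples, 3 of the 10 germ cell markers reached 1 FPKM in any sample, and their sum was 19.5 to 19.8 FPKM in control and 25.7 to 27.0 FPKM in shCTCF samples, where Ifitm3 went from a mean of 0.737 to 10.8 FPKM and Etv5 from 17.3 to 14.3 FPKM. Of the 14 mast cell and haematopoietic markers 10 reached 1 FPKM, with sums of 1761 to 1858 and 2737 to 2862 FPKM, and Fcer1a was at 0 in every sample. This list moved both ways, since mean Srgn went from 174 to 770 FPKM and mean Cpa3 from 281 to 88.0 FPKM. Of the 12 fibroblast markers 6 reached 1 FPKM, with sums of 1004 to 1059 and 6360 to 6536 FPKM made up almost wholly of Vim, while Col3a1 and Lum were at 0. These 6 moved both ways as well. Mean Vim went from 1019 to 6457 FPKM, Pdgfra from 1.13 to 4.16 FPKM and Thy1 from 0.382 to 2.02 FPKM. Mean Pdgfrb went from 6.09 to 2.16 FPKM, Dcn from 2.71 to 0 FPKM and Fn1 from 2.22 to 0.0266 FPKM. The part of these marker levels in the results on subunits was not tested. In these bulk samples fewer cells of a type and less RNA per cell cannot be told apart.

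The respiratory chain passes electrons from NADH (through complex I) and from succinate (through complex II) to coenzyme Q, then through complex III and cytochrome c to complex IV, which reduces oxygen. Complexes I, III and IV pump protons across the inner mitochondrial membrane, and complex V uses the proton gradient to make ATP. Each complex has a core that carries the redox centres or the catalytic sites. Except in complex II the core is surrounded by small accessory subunits that bear on assembly, stability and regulation, and part of the core of complexes I, III, IV and V is encoded in mitochondrial DNA, whose genes were not analysed here.

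Across the respiratory chain, subunit transcripts were mostly lower after CTCF knockdown. Of the 86 members, 79 had a mean of at least 1 FPKM and were tested, and 51 fell and 1 rose at an adjusted p under 0.05 (limma on log2(FPKM + 1), Benjamini-Hochberg over 9976 symbols). The background was high, since 44.2% of all symbols tested were lower and 28.8% higher by the same rule, against 64.6% and 1.27% of the members tested. The members' median difference was -0.47 on the log2(FPKM + 1) scale, beside -0.17 over all symbols. Scaling the samples to the same median moved the median of all symbols to -0.01 and that of the members to -0.28, so that relative to all symbols the members stood at -0.30 and -0.27. That scaling left 43 members lower and 11 higher, beside 36.1% and 34.9% of all symbols. In 53 of the 79 members all 3 shCTCF values were below all 3 control values, which held for 45.8% of all symbols tested, in 6 they were all above (30.8% of all symbols), and in 20 the groups overlapped.

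**Figure D1:**
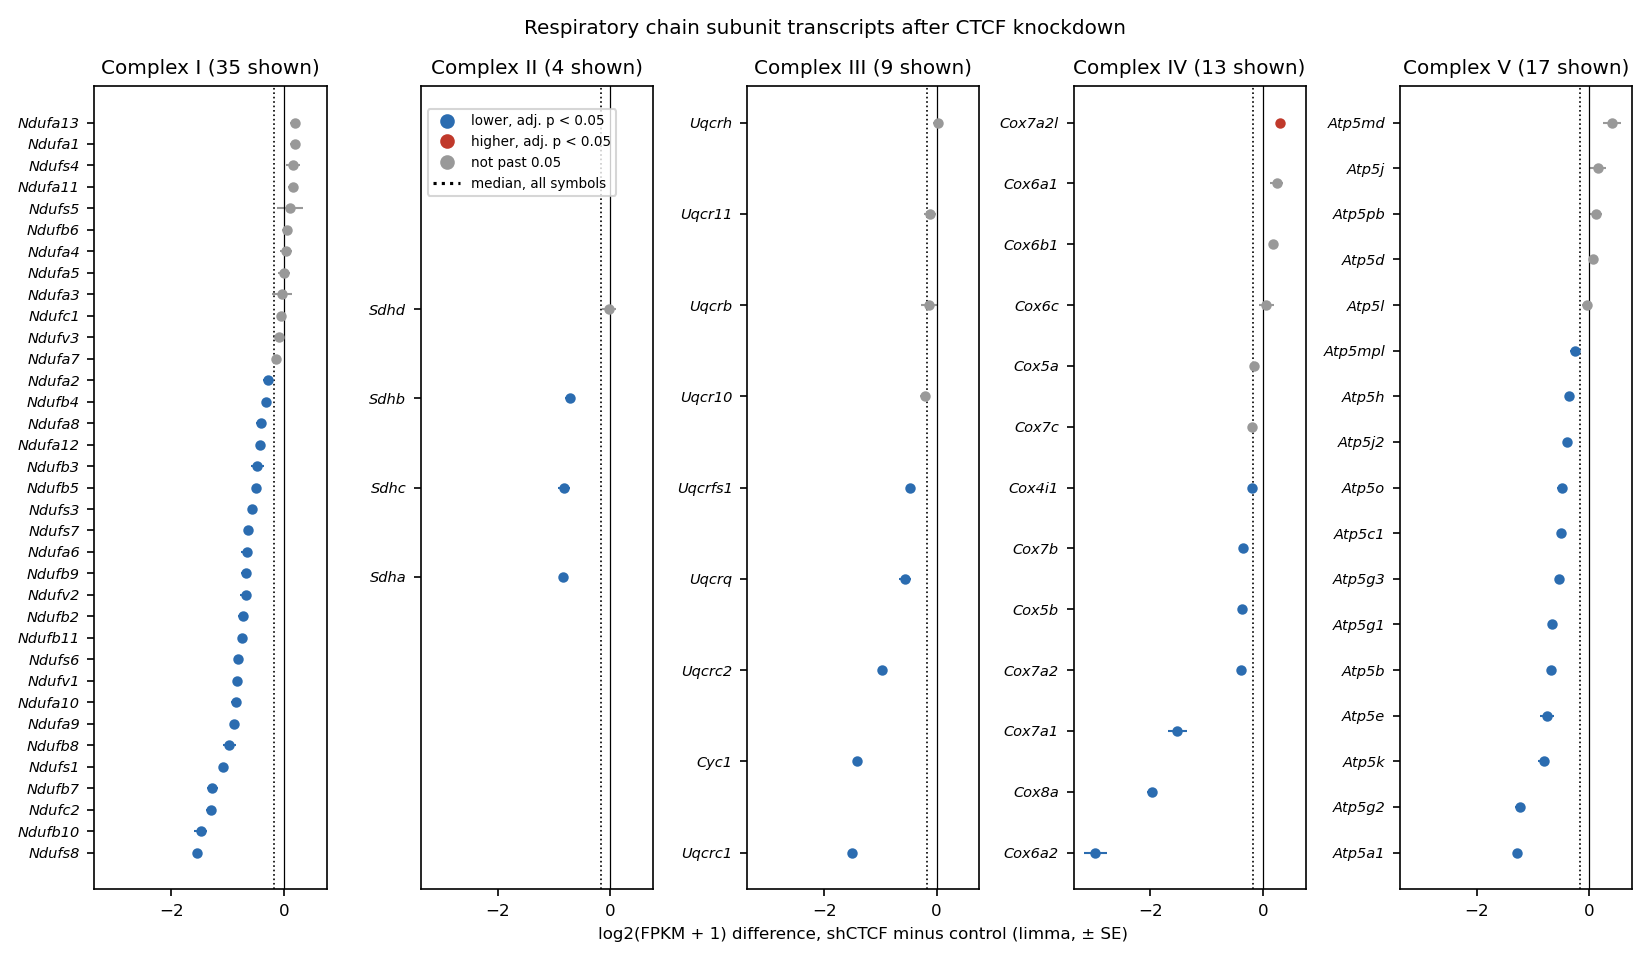
Difference in log2(FPKM + 1), shCTCF minus control (horizontal axis), of 78 subunit genes tested, by complex. Points are limma estimates from 3 samples a group and bars are 1 SE. Blue points were lower and the red point was higher at an adjusted p under 0.05, grey points did not pass, and the dotted line is the median of all symbols (-0.17). Most points lie left of that line in each complex, with the lowest points in complex IV.

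Summed over members, subunit transcripts came to 11090, 12190 and 12100 FPKM in the control samples and to 8755, 8794 and 8582 FPKM in the shCTCF samples, with no overlap. The sum was 26.2% lower after knockdown, and its share of all FPKM went from 2.62% to 1.92%. By complex the summed level was 30.2% lower for complex I, 34.8% for complex II, 27.8% for complex III, 13.5% for complex IV and 30.9% for complex V. These sums weigh highly expressed members most and were not tested.

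Complex I is the largest complex and takes electrons from NADH. On FPKM 24 of its 36 tested members fell and none rose, with a median of -0.53. The share that fell was 66.7%, beside 44.2% of all symbols. Under median scaling the split was 21 lower and 5 higher, beside 36.1% and 34.9% of all symbols. On counts it was 11 lower and 5 higher of 24 (45.8% and 20.8%), beside 34.3% and 34.8% of all symbols. Its nuclear core subunits include those that bind the flavin and the iron-sulphur clusters. The largest difference among those described was in Ndufs8 (mm9, chr19:3908863-3912774, minus strand), an iron-sulphur subunit next to the site of coenzyme Q reduction. Ndufs8 was at 81.0, 77.9 and 86.7 FPKM in control and at 25.3, 30.2 and 27.0 FPKM in shCTCF samples. The groups lay far apart, with a difference of -1.54 ± 0.08 (log2 scale, SE, n = 3 a group) and a limma adjusted p of 2.1e-06. Ndufs1, the largest core subunit, went from 97.4, 92.2 and 100.5 FPKM to 44.9, 46.0 and 45.0 FPKM (-1.08 ± 0.06, limma, adjusted p = 2.6e-06). Every shCTCF value was below every control value.

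The flavin-binding subunit Ndufv1 fell by 0.83 ± 0.08 and its partner Ndufv2 by 0.68 ± 0.10 on the log2(FPKM + 1) scale. Ndufs7, which carries the last iron-sulphur cluster before coenzyme Q, fell by 0.63 ± 0.06 and Ndufs3 by 0.57 ± 0.07, the smallest difference among the core subunits described. The limma adjusted p-values of these 4 genes ran from 3.1e-05 for Ndufv1 to 0.00046 for Ndufv2, and in none of them did the groups overlap.

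The accessory subunits of complex I were split. Of 29 tested on FPKM 17 fell (58.6%, beside 44.2% of all symbols) and none rose, with a median of -0.40. On counts 8 of 21 fell and 5 rose, with a median of -0.12. The share that fell on counts, 38.1%, was near the 34.3% of all symbols, and 23.8% rose beside 34.8%. The Ndufb subunits, most of which sit in the membrane arm, fell in 9 of 10 tested members with a median of -0.70, and Ndufa subunits fell in 6 of 13 with a median of -0.14, a share (46.2%) near the 44.2% of all symbols. On counts 4 of 7 Ndufb members fell and none rose, and 3 of 10 Ndufa members fell and 3 rose. The shares that fell were 57.1% and 30.0%, beside the same 34.3%. Ndufb10, a membrane arm subunit, was at 86.9, 113 and 92.9 FPKM in control and at 30.9, 35.0 and 37.0 FPKM in shCTCF samples. That was the largest difference among accessory subunits tested (-1.48 ± 0.11, limma, adjusted p = 1.2e-05), with the groups well apart. At the other end, Ndufa1, a small membrane subunit, was at 83.1, 93.8 and 92.3 FPKM in control and at 96.5, 110.1 and 101 FPKM in shCTCF samples, and Ndufa13 (also known as Grim19) was at 49.0, 56.7 and 56.6 FPKM and at 61.2, 65.1 and 58.6 FPKM. In both the shCTCF values lay just above the control values, with differences of 0.19 ± 0.08 that did not pass (limma, adjusted p = 0.056 and 0.068) and passed under median scaling (both 0.37, adjusted p = 0.0035 and 0.0051). Ndufv3, a flavoprotein subunit outside the core and the complex I member with the highest mean level, overlapped between groups at 217, 288 and 230.0 FPKM against 236, 231 and 219.9 FPKM.

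Complex II oxidises succinate to fumarate and so belongs to the tricarboxylic acid cycle as well. Of its 4 subunits 3 fell and none rose on FPKM, a share of 75.0% lower beside 44.2% of all symbols. Sdha, the flavoprotein with the succinate site, was at 111, 110.4 and 117 FPKM in control and at 61.8, 67.3 and 59.2 FPKM in shCTCF samples (-0.84 ± 0.07, limma, adjusted p = 1.8e-05). Sdhb, the iron-sulphur subunit with the highest level of the complex, went from 126, 149.6 and 131 FPKM to 85.8, 81.4 and 78.0 FPKM (-0.72 ± 0.08, limma, adjusted p = 8.9e-05). The membrane anchors differed from each other: Sdhc went from 63.4, 74.5 and 61.1 FPKM to 37.0, 41.4 and 32.9 FPKM (-0.82 ± 0.11, limma, adjusted p = 0.00025), with no overlap. Sdhd was at 78.2, 58.8 and 83.9 FPKM and at 73.8, 71.0 and 70.8 FPKM, with the shCTCF values inside the control range and a difference of -0.02 (95% interval -0.31 to 0.27, limma, adjusted p = 0.90). Without control replicate 2, its lowest sample, Sdhd passed at -0.17 (adjusted p = 0.015).

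Complex III carries electrons from coenzyme Q to cytochrome c. Of its 9 members 5 fell and none rose on FPKM, with a median of -0.47. The share that fell was 55.6%, beside 44.2% of all symbols. Its 4 larger subunits all fell, with a median of -1.19, and of the 5 small subunits 1 fell (Uqcrq), with a median of -0.13. Uqcrc1 (mm9, chr9:108838661-108851686, plus strand), a core protein of the matrix side, was at 131, 150.1 and 135 FPKM in control and at 47.9, 51.9 and 45.1 FPKM in shCTCF samples. The difference of -1.50 ± 0.08 was the largest of the complex (limma, adjusted p = 2.0e-06). Cyc1 (cytochrome c1), which hands the electron to cytochrome c, went from 88.7, 93.7 and 85.0 FPKM to 31.1, 33.0 and 35.1 FPKM (-1.41 ± 0.07, limma, adjusted p = 1.6e-06). Every value after knockdown was below every control value. Uqcrfs1, the Rieske iron-sulphur protein, fell less, from 90.5, 88.3 and 86.2 FPKM to 65.0, 63.2 and 62.9 FPKM (-0.47 ± 0.06, limma, adjusted p = 0.00016). The hinge protein Uqcrh, the member of the complex with the highest level, overlapped between groups at 145, 181 and 164 FPKM against 180.5, 158 and 159 FPKM (0.03, 95% interval -0.19 to 0.25). Uqcr11, the smallest subunit, was at 137, 174 and 162 FPKM against 154, 139 and 140.2 FPKM, again with overlap. Its difference of -0.12 became -0.22 and passed without control replicate 1 (limma, adjusted p = 0.039).

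**Figure D2:**
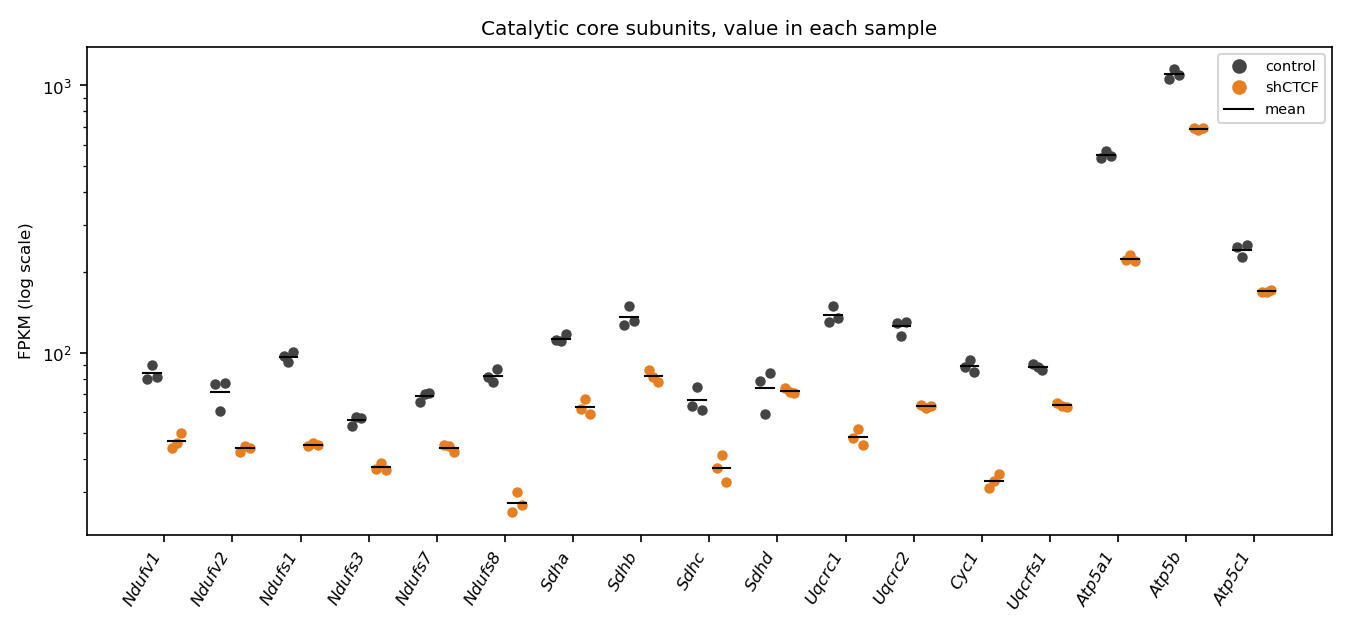
FPKM (vertical axis, log scale) of nuclear core subunits of complexes I, II and III and of the alpha, beta and gamma chains of complex V in each of the 3 control (grey) and 3 shCTCF (orange) samples, with lines at the group means. Sdhd is the gene whose groups overlap, and Atp5b is the highest, at 1060.0 to 1151 FPKM in control samples.

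Complex IV, cytochrome c oxidase, held the largest differences, and its median was the closest to 0. Of its 13 tested members 7 fell and 1 rose, with a median of -0.20. The share that fell, 53.8%, stands beside 44.2% of all symbols. Under median scaling 4 fell and 3 rose, both smaller shares than the 36.1% and 34.9% of all symbols. Cox8a (mm9, chr19:7289648-7292106, minus strand), a small membrane subunit found in most tissues, was at 299, 383 and 340.4 FPKM in control and at 85.1, 85.2 and 86.2 FPKM in shCTCF samples. The difference was -1.98 ± 0.09 (limma, adjusted p = 9.3e-07), and its partner isoforms Cox8b and Cox8c were listed at 0 FPKM in all 6 samples. Cox4i1, the regulatory subunit with the highest level of the complex, fell from 472, 522 and 503 FPKM to 446, 446 and 413 FPKM without overlap (-0.20 ± 0.06, limma, adjusted p = 0.021). It did not pass under median scaling (-0.01), without the trend in the variance prior, or with its most expressed transcript alone (-0.33, limma, adjusted p = 0.089). Cox6b1, which lies where the monomers of the dimer meet, was at 328, 381 and 404 FPKM against 441, 412 and 408 FPKM. Cox6a1 was at 303, 418 and 339.9 FPKM against 410.5, 418 and 409.7 FPKM. Both had higher means after knockdown without passing (0.18 ± 0.08 and 0.24 ± 0.11, limma, adjusted p = 0.083 and 0.086), and both passed under median scaling (0.37 and 0.42). The groups overlapped in Cox6a1 and not in Cox6b1. Cox7a2l, known for a part in supercomplexes of complexes III and IV, was the member that passed as higher. That role was not measured in these cells. Cox7a2l rose from 77.5, 71.6 and 83.4 FPKM to 97.2, 96.1 and 94.1 FPKM (0.30 ± 0.07, limma, adjusted p = 0.0052). It has a near-identical copy in the genome, so its reads are uncertain, and it had too few counts to be tested there. Of the 19 tested members with such copies 10 fell, and of the 60 without 41 fell, beside 44.2% of all symbols. The part of copies in this was not tested.

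Several complex IV subunits have a common form and a form known for particular tissues. The heart and muscle forms Cox6a2 and Cox7a1 were present at low level in control samples and fell. Cox6a2 (mm9, chr7:135348949-135349880, minus strand) was at 19.0, 17.0 and 15.3 FPKM in control and at 0.920, 2.18 and 0.945 FPKM in shCTCF samples. With -2.98 ± 0.20 (limma, adjusted p = 6.7e-06) it was the largest difference of all members tested, and its mean was 92.1% lower. At these low levels the value moved with the pseudocount, from -3.67 at 0.1 to -1.80 at 5, where Cox8a was lower still (-1.93). Cox7a1 went from 6.86, 10.9 and 11.2 FPKM to 2.76, 2.72 and 2.43 FPKM (-1.52 ± 0.17, limma, adjusted p = 0.00011), and ranged from -1.80 to -0.92 over the same pseudocounts. The 6 muscle markers, among them Myh6, Ckm and Myod1, were at most at 0.0836 FPKM in any sample. As a share of both forms, Cox6a2 made up 5.91%, 3.91% and 4.31% of Cox6a1 plus Cox6a2 in control samples and 0.224%, 0.519% and 0.230% in shCTCF samples. Of the bases of the Cox6a2 transcript 10.5% also belong to Itgad, which was listed at 0 FPKM in every sample.

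The common form Cox7a2 fell by 0.40 ± 0.07 and Cox7b by 0.36 ± 0.07 on the log2(FPKM + 1) scale (limma, adjusted p = 0.0012 and 0.0024), and Cox7b did not pass under median scaling (-0.18). Ndufa4, by contrast, overlapped at 135, 113 and 154 FPKM against 135, 132 and 143 FPKM (0.04, 95% interval -0.22 to 0.29). Cox4i2, the form known from lung and low oxygen, was at 0.128, 0 and 0.358 FPKM in control and at 0.278, 1.22 and 0.367 FPKM in shCTCF samples, too low to be tested. Cox6b2, Cox7b2, Cox8b, Cox8c and Ndufa4l2 were listed at 0 FPKM in every sample, which can also be a failed estimate. Ndufa4l2 had 1 to 6 counted fragments a sample, Cox8b at most 2 and Cox7b2 and Cox8c had 0, while the accessions of Cox6b2 overlap so far (95.3% or more of exon bases) that its counts of 0 are uninformative. A last member, Ndufb4c, reached at most 0.913 FPKM. These 7 low members were not tested on FPKM.

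**Figure D3:**
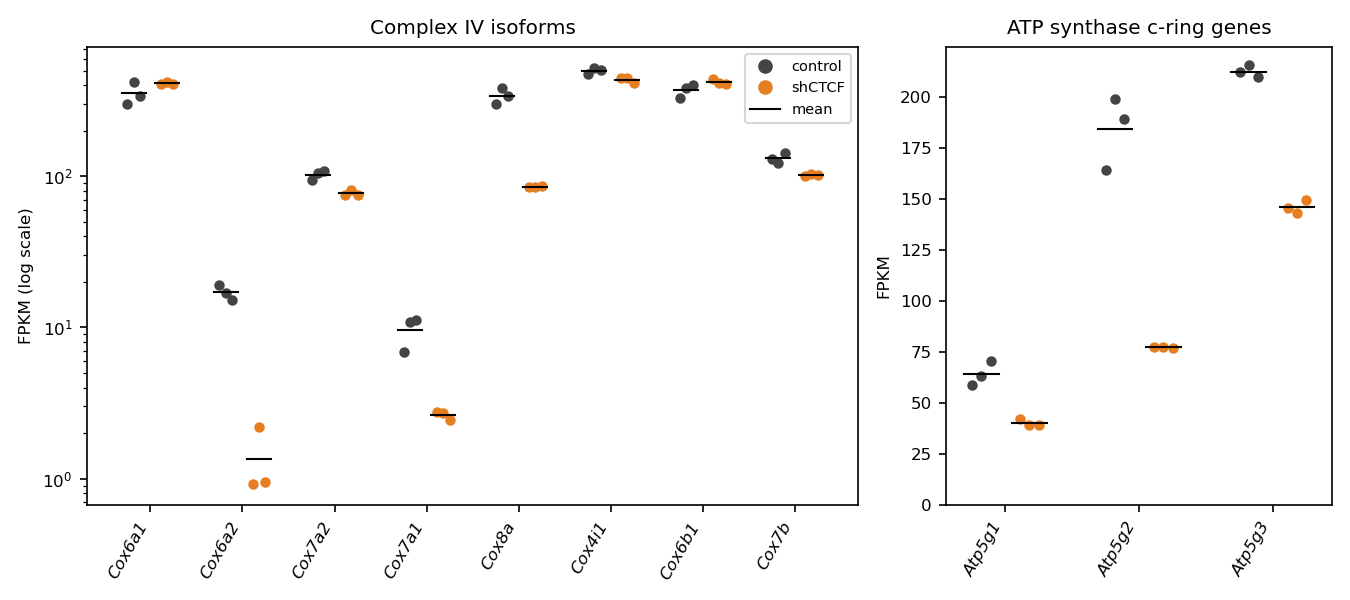
FPKM in each of the 3 control (grey) and 3 shCTCF (orange) samples, with lines at the group means, for isoforms of complex IV subunits (left, log scale) and the c-ring genes of ATP synthase (right, linear scale from 0). Cox6a2, Cox7a1 and Cox8a lie well below control after knockdown, whereas Cox6a1 and Cox6b1 do not.

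Complex V has a catalytic F1 head, a rotating c-ring, a stalk and small membrane subunits. Of its 17 members 12 fell and none rose on FPKM, with a median of -0.48. The share that fell was 70.6%, beside 44.2% lower and 28.8% higher of all symbols. Under median scaling 10 fell and 3 rose, and on counts 6 of 10 fell and 1 rose. Atp5a1, the alpha chain, was at 538, 571 and 546 FPKM in control and at 223, 231 and 219.7 FPKM in shCTCF samples. It had the largest difference of the complex (-1.29 ± 0.05, limma, adjusted p = 6.0e-07), with every shCTCF value below every control value. Atp5b, the catalytic beta chain and the member with the highest level of all, went from 1060.0, 1151 and 1099 FPKM to 692, 682 and 693 FPKM (-0.68 ± 0.05, limma, adjusted p = 1.3e-05). The gamma chain Atp5c1, the rotating shaft, went from 249, 227 and 252 FPKM to 169, 168 and 172 FPKM (-0.51 ± 0.06, limma, adjusted p = 0.00014). The alpha and beta chains stand in equal number in the head, and their mean FPKM were 59.3% and 37.5% lower.

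The c-ring is built from 1 protein made by 3 genes. Atp5g2 fell most, from 164, 199 and 189 FPKM to 77.5, 77.2 and 77.2 FPKM (-1.24 ± 0.08, limma, adjusted p = 4.9e-06). Atp5g1 went from 59.0, 63.3 and 70.4 FPKM to 41.9, 39.3 and 39.1 FPKM (-0.66 ± 0.08, limma, adjusted p = 0.00016). Atp5g3 went from 212, 216 and 209.8 FPKM to 146, 143 and 149.8 FPKM (-0.54 ± 0.05, limma, adjusted p = 4.6e-05). Atp5g2 made up 37.7%, 41.7% and 40.3% of the summed level in control samples and 29.2%, 29.7% and 29.0% in shCTCF samples, and Atp5g3 rose as a share from 48.7%, 45.1% and 44.7% to 55.0%, 55.2% and 56.3%. Neither pair of shares overlapped. Atp5g1 and Atp5g2 have near-identical copies elsewhere in the genome, so their reads are uncertain. The same holds, among others, for Ndufs3, Uqcr11, Cox7b, Atp5h, Atp5o, Atp5pb and Atp5j. The accession of Atp5g1 with the highest mean gave -0.14 alone and did not pass.

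Among the stalk subunits Atp5o and Atp5h fell and Atp5pb and Atp5j did not pass. Atp5j, coupling factor 6, was at 76.7, 85.1 and 117 FPKM against 103, 103 and 98.8 FPKM. It has 7 transcript accessions and shares exon bases with Gabpa, and the accession with the highest mean alone gave -0.63 where their sum gave 0.15. The former passed as lower (limma, adjusted p = 0.0051), and without control replicate 3 the sum passed as higher (0.33, limma, adjusted p = 0.0083). Atp5md, a small membrane subunit with near-identical copies in the genome, was at 116, 80.5 and 131 FPKM in control and at 150.5, 134 and 142 FPKM in shCTCF samples (0.41 ± 0.16, limma, adjusted p = 0.053). Its shCTCF values were all above control, and it passed under median scaling (0.59, adjusted p = 0.011).

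Core and accessory subunits were set side by side. Of the 15 subunits in the core of complexes I and III and in complex II, 14 fell and none rose on FPKM, with a median of -0.83, and the exception was Sdhd. That is 93.3%, beside 44.2% of all symbols. Accessory subunits of complex I fell in 17 of 29 and small subunits of complex III in 1 of 5. The F1 head of complex V was left out of the 15, and there 4 of 5 fell and 1 did not pass. This is a description, as the groups of subunits were drawn up with the values known. The transcripts of the 15 are long among the members (741 to 2859 nt, beside a median of 714 nt), and the difference also moved with length. Members under 600 nt had a median of -0.16 (12 of 28 lower), those of 600 to 999 nt -0.49 (18 of 23), those of 1000 to 1499 nt -0.51 (11 of 15) and those of 1500 nt and over -0.84 (10 of 13). All symbols tested had medians of -0.22, -0.30, -0.28 and -0.15 in the same classes, with 39%, 50.2%, 47% and 43.5% lower, so the share of the shortest members (42.9%) was near that of its class. The part of length in the difference between core and accessory subunits was not tested.

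The table of counts gave a second reading of the same libraries. It held 54 members above the filter on low counts, of which 28 fell and 7 rose (edgeR's quasi-likelihood test, adjusted p under 0.05), beside 34.3% lower and 34.8% higher of all 7341 symbols tested. The members' median log2 fold change was -0.24, beside -0.02 over all symbols. With library size as the only scaling the members split into 35 lower and 4 higher, and with RLE scaling into 24 lower and 10 higher. The shares of all symbols under these scalings are not given here, so neither split can be set against its background. Of the 54 members 47 had the same direction in both tables. All 28 that fell on counts also fell on FPKM, which held on both tables for 35.4% of the 6482 symbols tested in both. Of the 35 members that fell on FPKM and were tested on counts, 7 did not pass on counts, among them Atp5h and Cox7b. No member passed in opposite directions. Over the 54 members the differences had a Pearson correlation of 0.979, a description over genes that share their libraries, and the counts lay higher by a median of 0.18.

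The 7 members that rose on counts were Ndufv3, Atp5md, Cox6a1, Ndufa13, Ndufa11, Ndufa1 and Ndufs4, and none of them passed on FPKM. Ndufv3 had the largest gap between tables, with a log2 fold change of 0.86 ± 0.10 on counts (edgeR, adjusted p = 1.1e-05) and a difference of -0.09 on FPKM. Its 2 accessions share 30.8% and 100% of their exon bases, where fragments were not assigned. For Cox8a the counts gave -1.78 ± 0.09, for Cox6a2 -3.37 ± 0.23 and for Uqcrc1 -1.34 ± 0.09 (edgeR, adjusted p = 7.9e-09, 8.7e-08 and 4.1e-08). The remaining 25 members tested on FPKM had too few counts, and in each of them over 50% of the exon bases of at least 1 accession also lay under another, where fragments were not assigned. Ndufs8, Ndufs1 and Sdhb were among them with 0 fragments in every sample, and so was Ctcf.

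**Figure D4:**
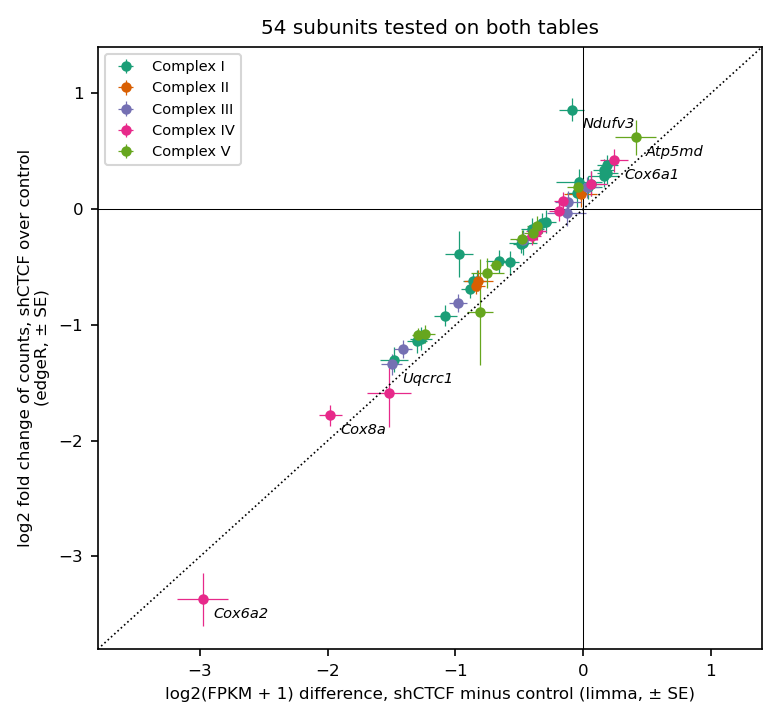
Log2 fold change on counts (edgeR, vertical axis) against the difference in log2(FPKM + 1) (limma, horizontal axis), shCTCF against control, for the 54 subunit genes tested on both tables. Bars are 1 SE, colours mark the complex and the dotted line is equality. Points run along the line and mostly above it, with Ndufv3 furthest off.

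The stretches before the transcription start of members were searched for binding motifs of factors known for respiratory genes, since most members fell. RefSeq promoters (GRCm38.p6) were matched for 68 of the 86 members, and the 250 bases before the start were read on both strands. The NRF1 motif GCGCANGCG was found in 14 of the 68 (20.6%), beside 5.86% of 27025 genes and 14.4% of genes tested on FPKM. Its 14 carriers had a median difference of -0.34 with 8 lower, and the 51 tested members without it a median of -0.47 with 31 lower. The ETS motif CCGGAAG of GABPA was found in 17.6%, beside 7.83% of all genes and 17.9% of genes tested, and its carriers had a median of -0.03 with 4 of 12 lower. The YY1 motif AAGATGGC was found in 1 member (1.47%, beside 1.83% of all genes and 2.61% of genes tested). The CTCF motif was found in 1 member, Ndufv1 (1.47%, beside 0.585% of all genes and 0.909% of genes tested), and a looser form of it with more free bases in 4, Ndufa6, Ndufb6, Ndufv1 and Uqcrc1 (5.88%, beside 2.41% and 3%), of which 3 fell. A match is a description, and binding was not measured here. Stretches of 120 bases are shown for members that fell and carry a motif: the bases directly before the start of Sdha with 3 NRF1 matches (chr13:74350241-74350360, minus strand) and of Atp5g2 with overlapping matches on both strands (chr15:102671048-102671167, minus strand), and bases 220 to 101 before the start of Ndufv1 with the CTCF match (chr19:4012856-4012975, minus strand). Capitals mark the motif, on either strand.
Sdha: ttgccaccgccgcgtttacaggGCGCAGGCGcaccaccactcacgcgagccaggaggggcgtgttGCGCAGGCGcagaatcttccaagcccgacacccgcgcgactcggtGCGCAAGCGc
Atp5g2: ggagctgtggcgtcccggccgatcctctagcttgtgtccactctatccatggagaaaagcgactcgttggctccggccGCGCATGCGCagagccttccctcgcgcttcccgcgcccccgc
Ndufv1: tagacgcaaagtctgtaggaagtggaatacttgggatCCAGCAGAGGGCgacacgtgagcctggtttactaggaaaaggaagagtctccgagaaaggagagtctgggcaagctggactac

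Genes that act with the chain were read from lists on FPKM, where 44.2% of all symbols tested were lower and 28.8% higher. Of 46 tested assembly factors 30 fell and 8 rose (65.2% and 17.4%), with a median of -0.47. Ndufaf3, an assembly factor of complex I, fell by 2.40 ± 0.13 and Bcs1l, which inserts the Rieske protein into complex III, fell by 1.72 ± 0.09 on the log2(FPKM + 1) scale. Among those that rose, the copper chaperone gene Cox19 did so by 0.90 ± 0.07. Sco2, another copper chaperone, was listed at 0 FPKM in all control samples and at 10.8, 12.4 and 13.7 FPKM in shCTCF samples, and had 0 counted fragments in all 6. It is counted among the 8, but an exact 0 FPKM can be a failed estimate: Surf1, an assembly factor of complex IV, was listed at 0 in every sample, and Slirp at 0 in control replicate 2, where 21 fragments were counted, beside 67.8 and 63.5 FPKM in the other control samples. Of 8 tested genes for cytochrome c and carriers 6 fell and 1 rose: Hccs, which attaches haem to cytochrome c, fell by 1.45 ± 0.15, the ADP/ATP carrier Slc25a5 fell by 0.95 ± 0.07, and its relative Slc25a4 rose by 0.47 ± 0.08. Cytochrome c itself (Cycs) was at 61.6, 62.1 and 63.8 FPKM against 60.6, 58.2 and 61.2 FPKM.

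Of 11 tested genes for coenzyme Q synthesis 8 fell and 1 rose, with a median of -0.77. That is 72.7% and 9.09%, beside 44.2% and 28.8% of all symbols. Coq7, a hydroxylase of the pathway, fell most, from 19.3, 14.6 and 16.4 FPKM to 3.87, 3.87 and 2.63 FPKM. Coq9, its lipid-binding partner, fell by 1.22 ± 0.14 on the log2(FPKM + 1) scale, and Coq10b was higher by 0.93 ± 0.28. Of 19 genes of the tricarboxylic acid cycle and pyruvate entry 14 fell and 4 rose (73.7% and 21.1%). Suclg2, a subunit of succinyl-CoA ligase, fell by 1.95 ± 0.13 and Idh2, mitochondrial isocitrate dehydrogenase, fell by 1.87 ± 0.08. Against them citrate synthase (Cs) went from 172, 173 and 168 FPKM to 324, 318 and 323 FPKM, and pyruvate carboxylase (Pcx) rose by 1.97 ± 0.08.

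Of 21 tested regulators of nuclear and mitochondrial respiratory genes 15 fell and 1 rose, with a median of -0.69. Those shares were 71.4% and 4.76%, beside 44.2% and 28.8% of all symbols. Polg, the polymerase of mitochondrial DNA, fell by 1.47 ± 0.11 and Lrpprc, which stabilises mitochondrial mRNA, fell by 1.18 ± 0.09. Esrra, a nuclear receptor that acts on respiratory genes, went from 8.55, 8.06 and 7.63 FPKM to 16.7, 15.4 and 15.4 FPKM and was the one that rose. Beside the members, 57 of 77 genes for mitochondrial ribosomal proteins fell (74.0%) and 5 rose (6.49%), with a median of -0.56. Of 90 genes for cytosolic ribosomal proteins 55 fell (61.1%) and 7 rose (7.78%), with a median of -0.36. Of 4 genes for proteins of the chain outside the rule 1 fell, Ndufab1 (-1.08 ± 0.10), and 1 rose, Atpif1 (0.23 ± 0.06), the inhibitor of ATP synthase.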

How the data were processed

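Stranded mRNA-seq libraries (KAPA) of 3 control and 3 shCTCF samples were analysed. The authors aligned reads to mm9 with HISAT2. FPKM per RefSeq accession were deposited as made by the authors with Cufflinks 2.2.1. Deposited counts are whole fragments per accession from featureCounts 1.6.2, unnormalised, with strand unused and fragments over exons of several accessions not assigned. Every per-sample column was mapped to a sample.

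Both tables were summed per symbol with RefSeq names (41685 of 41876 FPKM rows and 41186 of 41388 count rows matched). FPKM of symbols with a mean of at least 1 were tested as log2(FPKM + 1) with limma 3.58.1 (eBayes with trend), which understates changes of low genes, and counts with edgeR 4.0.16 (TMM, filterByExpr, quasi-likelihood test) in R 4.3.3. Tests were two-sided, with Benjamini-Hochberg adjustment over all symbols. Both were tested on simulated data in which few genes changed, equally many up and down. That setting cannot show how they behave where most symbols change, as here. DESeq2 1.42.0, scaling, filters, pseudocounts, single accessions, replicate blocks and left-out samples were alternatives. Exon overlap was read from mm9 coordinates in the count table, and copies of at least 150 nt at 97% identity were sought in the mm9 genome.

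Members, gene lists, core groups and motifs were chosen with earlier results of these data known. Named genes were the 2 highest, 2 lowest and most expressed of each complex, core subunits, isoforms, the c-ring genes and, per other list, the 2 that rose and fell most. Cycs, Uqcrq, Ndufa11, Ndufs4, Ndufb4c, Cox7a2 and the stalk subunits were named after their values were seen. One member is not reported singly here. Promoters came from RefSeq (GRCm38.p6). Ndufs5, Ndufa5 and other members with overlapping accessions rest on FPKM alone. The depth of control replicate 2 gives its counts less precision.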

Additional observations from a re-analysis of the deposited data

How the results depend on the processing

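Of 225 recomputed summary values 215 kept their direction and stayed within 1.5 times the reported count, past the same threshold or within the spread between replicates. Among symbols with 1 accession 33 members passed on FPKM (14 of complex I and 7 of complex V) with a median of -0.40, since 52 members were then tested. The median of members on FPKM was -0.28 under median scaling and -0.41 under quantile normalization. On counts it was -0.41 with library size only, -0.17 without a filter and -0.13 for symbols with a mean of at least 5 FPKM, where 24 members were lower and 13 higher. Each of these medians lay below that of all symbols under the same setting. For the counts of members passing in this section the shares of all symbols are not given.

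With one sample left out, members passing ranged from 51 to 59 on FPKM and from 32 to 43 on counts, medians from -0.46 to -0.42 and from -0.27 to -0.20, and Ctcf from -5.16 to -5.08. By complex the FPKM ranges were 23 to 26, 3 to 4, 5 to 7, 7 to 10 and 11 to 14 for complexes I to V, and the ranges on counts 15 to 19, 2 to 2, 4 to 5, 4 to 7 and 6 to 10. Without control replicate 2, 54 members were lower and 5 higher on FPKM and 33 lower and 10 higher on counts.

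Of 958 values of single genes 14 reversed, all of genes that did not pass in the reported test. Under median scaling Ndufv3 was 0.10, Sdhd 0.16 and Uqcr11 0.06, and under quantile normalization Sdhd was 0.09. Atp5j was -0.63 for its highest accession. With a sample left out Sdhd ranged from -0.17 to 0.08, Uqcrh from -0.05 to 0.10, Ndufa4 from -0.08 to 0.14 and Ndufv3 from -0.17 to 0.03 on FPKM, and Uqcr11 from -0.04 to 0.13 on counts. With library size only Sdhd was -0.04 and Uqcr11 -0.11 on counts. A further 19 values lost and 27 gained significance. The cause was not tested.

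Replicate numbers do not pair the samples, since deviations of same-numbered samples correlated between -0.041 and 0.0395 on FPKM and between -0.0114 and 0.0252 on counts. With the replicate block 55 members passed on FPKM (52 lower, 3 higher) and 33 on counts (26 lower, 7 higher). The low depth of control replicate 2 limits what counts can show for members of few fragments.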
